A study of Mus musculus with 41 samples.

Results

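Genes that carry the insulin signal and the glucose uptake it controls were examined in the CUT&Tag peak lists of mouse cells and tissues, namely Insr, Igf1r, Irs1, Irs2, Pik3r1, Akt2, Tbc1d4, Slc2a4 and Foxo1. They were chosen by name for their place in the pathway, with earlier results of these data known. They are 9 of the 21728 protein-coding genes annotated on chromosomes 1 to 19 and X. A peak was assigned to a gene when it overlapped its promoter (2 kb on either side of a transcription start site, TSS) or its window (the gene body plus 10 kb on each side). CUT&Tag uses an antibody to tether a transposase to a histone modification, so that DNA next to the mark is cut and sequenced. On histone H3, the assay was run for lactyl-lysine 18 (H3K18la, 8 lists), acetyl-lysine 27 (H3K27ac, 5 lists), trimethyl-lysine 4 (H3K4me3, 4 lists) and trimethyl-lysine 27 (H3K27me3, 7 lists).

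The 41 samples, all labelled as controls, form 24 groups of 1 or 2 samples, and the replicates of a group were pooled before peaks were called, so each cell type contributed 1 list per mark. Muscle was represented by gastrocnemius (GAS), primary myoblasts (MB) and the myotubes grown from them during 3 days of differentiation (MT). GAS was whole C57BL/6 muscle from female mice of 8 to 12 weeks and therefore holds every cell type of the tissue. Adipocytes (ADIPO) were nuclei of white fat pulled down through a tag carried by AdipoCre-NuTRAP mice of 10 weeks, labelled C57BL/6, in which an adipocyte promoter drives Cre. The other cell types were E14 embryonic stem cells in serum-lif medium (ESC-ser) or in 2i-lif medium (ESC-2i), C57BL/6 bone marrow-derived macrophages cultured for 7 days with M-CSF (BMDM), and C57BL/6 macrophages sorted from calf muscle of female mice of 8 to 12 weeks, 2 days after hindlimb ischemia (PIM). The stem cells entered the assay as whole cells and all others as nuclei. E14 is 1 line, and the MB and BMDM H3K18la lists come from 1 sample each.

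Insulin binds the insulin receptor, a tyrosine kinase that phosphorylates the insulin receptor substrates. These recruit phosphoinositide 3-kinase, the lipid it makes activates AKT, and AKT releases vesicles that carry the glucose transporter GLUT4 to the surface of muscle fibres and adipocytes, the main tissues of insulin-stimulated glucose uptake. AKT also keeps FOXO1, a transcription factor of the fasted state, out of the nucleus. H3K4me3, H3K27ac and H3K18la lie at active promoters or enhancers, and H3K27me3 is the mark of Polycomb repression.

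The H3K18la lists held 13550 to 36813 peaks and covered 22.6 to 137 Mb of a 2634 Mb genome. Because lists differ so much in size, the amount of mark over a gene is given as window enrichment, the share of the window covered by peaks over the share of the genome covered by the same list; a value of 1 equals the genome average. The labelled identities were compared with markers at H3K18la promoters. All 5 stem cell markers were called in ESC-ser and ESC-2i and in no other list, 5 of 5 macrophage markers in BMDM and PIM, 5 of 5 adipocyte markers in ADIPO, 3 of 4 myoblast markers in MB and 6 of 6 differentiated muscle markers in MT. GAS carried 5 of 6 differentiated muscle markers but also 4 of 4 endothelial, 4 of 4 fibroblast, 2 of 5 adipocyte (Pparg, Fabp4) and 2 of 5 macrophage markers (Csf1r, Spi1), and the part of these cells in the GAS values below was not tested. Markers were also called outside their cell type: 3 of 5 adipocyte markers in PIM (Adipoq, Pparg, Fabp4) and 2 of 5 in BMDM, 3 of 5 macrophage markers in MT, and 3 of 4 fibroblast and 2 of 5 macrophage markers in ADIPO. Their part in the results was not tested. Pax7 was called in none of the lists.

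The sequences shown belong to the substrate genes Irs1 and Irs2, whose windows separated the groups. Their promoters are given first, as the start of each gene, although H3K18la was also called at the Irs1 promoter in both stem cell lists and at the Irs2 promoter in ESC-ser, ESC-2i, BMDM and PIM. They run from 250 bases before to 50 after the RefSeq start in build GRCm38.p6 (the sequence of mm10) and lie at chr1:82291390-82291689 and chr8:11008880-11009179, both on the minus strand. Capitals mark the GC box (GGGCGG or CCGCCC), the CCAAT box (CCAAT or ATTGG) and the E-box CACGTG, and both are printed 5′ to 3′ along the gene.
Irs1 promoter: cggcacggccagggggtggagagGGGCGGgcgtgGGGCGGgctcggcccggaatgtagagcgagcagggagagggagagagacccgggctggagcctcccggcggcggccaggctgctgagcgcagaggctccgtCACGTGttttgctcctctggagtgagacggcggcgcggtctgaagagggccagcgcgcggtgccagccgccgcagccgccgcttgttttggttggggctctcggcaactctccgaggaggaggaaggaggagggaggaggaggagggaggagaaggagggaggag
Irs2 promoter: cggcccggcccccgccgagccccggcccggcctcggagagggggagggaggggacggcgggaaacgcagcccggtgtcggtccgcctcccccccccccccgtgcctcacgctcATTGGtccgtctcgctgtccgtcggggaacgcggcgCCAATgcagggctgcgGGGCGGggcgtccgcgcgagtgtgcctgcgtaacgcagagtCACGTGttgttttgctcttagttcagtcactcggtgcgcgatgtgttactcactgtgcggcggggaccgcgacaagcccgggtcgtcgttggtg
Both are rich in G and C, 71.3% for Irs1 and 72.0% for Irs2 against a median of 52.7% over 32851 RefSeq promoters, and hold 28 and 41 CpG against a median of 7. A GC box, found in 35.7% of promoters, occurred at 2 positions in Irs1 and 1 position in Irs2. The longest run the pair had in common was 10 bases, gtcacgtgtt, starting at position -117 from the Irs1 start and -46 from the Irs2 start and present in 25 promoters in all. It contains CACGTG, which was added to the search after the sequences had been seen and occurs in 7.15% of promoters. The FOXO letters (GTAAACA or TGTTTAC, 3.65% of promoters), MEF2 letters (TATTTTTA or TAAAAATA, 2.72%), the E-box CAGCTG (16.3%) and the nuclear receptor half-site (AGGTCA or TGACCT, 16.3%) were in neither window of 300 bases. None of these motifs overlapped another in the Irs1 or Irs2 windows.

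Entries were found for 7 of the 9 genes; those of Foxo1, Igf1r and the most upstream Pik3r1 start held 31, 48 and 34 CpG, and the first Akt2 start and the Tbc1d4 start held 12 each. Slc2a4 and Insr are named only.

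The second pair of sequences is the middle of the longest stretch of each gene that was called for H3K18la in GAS, MB, MT and ADIPO and in none of the other 4 lists. In Irs1 that stretch was 3507 bp long and ran from 2563 to 6069 bp downstream of the gene start, with 2053 of its bases in the coding exon; the 300 bases shown, chr1:82286950-82287249, are all coding. In Irs2 it was 2554 bp long, from 12405 to 14958 bp downstream of the start, and entirely intronic, as are the bases shown, chr8:10994627-10994926. Both are on the minus strand of mm10 and were searched for the same motifs. None was found in either, hence no capitals.
Irs1 exon: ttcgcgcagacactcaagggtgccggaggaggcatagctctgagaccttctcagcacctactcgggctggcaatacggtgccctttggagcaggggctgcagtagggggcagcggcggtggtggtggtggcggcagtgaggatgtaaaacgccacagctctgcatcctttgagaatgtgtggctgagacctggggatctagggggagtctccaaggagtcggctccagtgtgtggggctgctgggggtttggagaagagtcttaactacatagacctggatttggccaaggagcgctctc
Irs2 intron: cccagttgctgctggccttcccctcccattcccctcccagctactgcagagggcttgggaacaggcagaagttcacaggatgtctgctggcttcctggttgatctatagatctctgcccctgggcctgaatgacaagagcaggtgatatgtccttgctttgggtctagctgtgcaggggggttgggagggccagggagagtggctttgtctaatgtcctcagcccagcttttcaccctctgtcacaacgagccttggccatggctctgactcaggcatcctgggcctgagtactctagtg
The 300 bases of Irs1 had a GC content of 59.7% and 11 CpG, and those of Irs2 57.3% and 1 CpG. The central 300 bases of 36796 GAS H3K18la peaks had medians of 48.0% and 3 CpG. In those peak centres a GC box occurred in 9.13%, a CCAAT box in 31.6% and the E-box CAGCTG in 18.6%.

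All 9 genes had a higher mean H3K18la enrichment in muscle and adipocytes than in the other 4 cell types, a direction shown by 41.9% of the 17809 genes with any H3K18la. Without ADIPO the difference of Akt2 became -0.0166 and that of Slc2a4 -2.76, and that of Pik3r1 fell from 5.90 to 1.02. For most of the genes the groups overlapped. Only Irs1 and Irs2 were higher in each of GAS, MB, MT and ADIPO than in any of ESC-ser, ESC-2i, BMDM and PIM, 2 of 9 genes, where 2.12% of all genes tested did the same. No member was lower in all 4, against 3.58% of all genes. Among genes with promoter H3K4me3 in all 4 lists of that mark, as all 9 members had, the share higher without overlap was 1.74%. The median difference between the group means was 3.02 for the members and -0.32 for all genes, and without ADIPO 1.79 and -0.61. Both depended on the setting. They were 10.8 and -0.72 with the 5000 strongest peaks of each list, and 10.2 and -0.61 with lists reduced to the bases of the smallest. In the 6 cell types processed as nuclei they were 5.76 and 0.23. With 4 against 4 cell types the exact permutation test over 70 assignments cannot go below a two-sided p of 0.0286, and no gene of the genome passed after Benjamini-Hochberg adjustment (smallest adjusted p = 0.501; 1016 genes had an unadjusted p under 0.05). The members are thus described by their values, and the spread is over cell types, not over replicates.

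**Figure D1:**
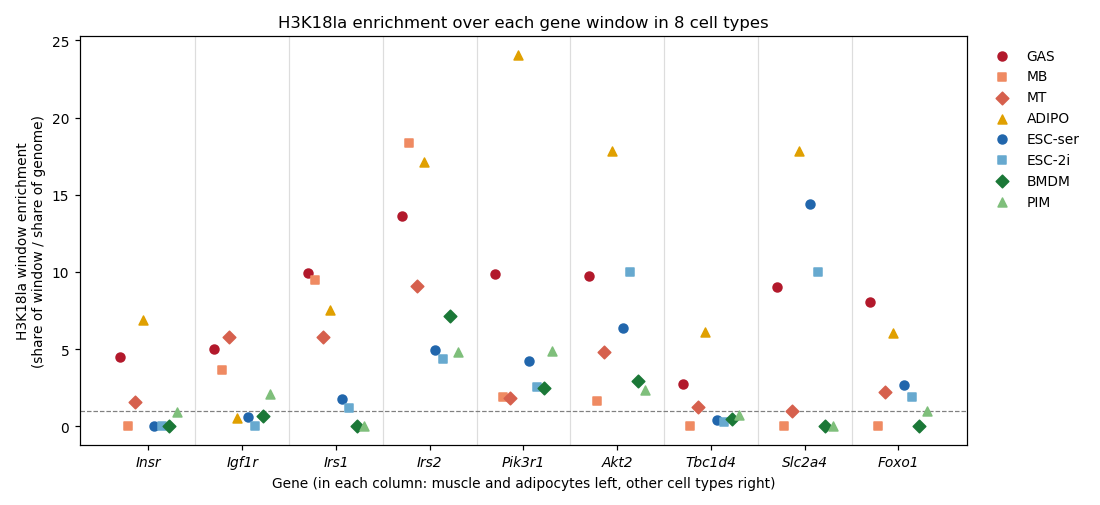
H3K18la window enrichment (y axis, share of the gene window covered by peaks over the share of the genome covered, no unit) for the 9 genes (x axis) with 1 point per cell type and a dashed line at the genome average of 1. Irs1 and Irs2 are the genes whose muscle and adipocyte points, on the left of each column, all lie above the points of the other cell types on the right.

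Irs1 encodes a main insulin receptor substrate of muscle and fat. Its H3K18la enrichment was 9.90 in GAS, 9.50 in MB, 5.75 in MT and 7.55 in ADIPO, and 1.77 in ESC-ser, 1.18 in ESC-2i, 0 in BMDM and 0 in PIM. The macrophages had no H3K18la peak anywhere in the 78.3 kb window, and the lowest value of muscle and adipocytes was well above the highest of the rest. The group means were 8.18 ± 1.91 and 0.740 ± 0.887 (SD, n = 4 cell types each; exact permutation p = 0.0286). The gene, chr1:82233101-82291416 on the minus strand, was entered by its largest peak at the promoter in all 6 lists that had one. That peak was 12283 bp wide in GAS, 10971 bp in MT, 11302 bp in ADIPO and 7778 bp in MB, against 4349 bp in ESC-ser and 4508 bp in ESC-2i. By total signal it ranked 397th of 36813 peaks in GAS, within the top 1.08%, and within the top 2.91% in ADIPO, 8.0% in MT and 21.0% in MB. In the stem cells it sat in the lower part of the list, at 55.1% in ESC-ser and 55.8% in ESC-2i. Peaks of the 4 muscle and adipocyte lists had 8870 bp in common, and every base called in the stem cells was also called in at least 1 of those 4 lists.

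Irs2, its widely expressed relative, had an enrichment of 13.6 in GAS, 18.4 in MB, 9.09 in MT and 17.1 in ADIPO. The others were lower and close together, 4.91 in ESC-ser, 4.33 in ESC-2i, 7.16 in BMDM and 4.80 in PIM. The group means were 14.5 ± 4.15 and 5.30 ± 1.26 (SD, n = 4 each; exact permutation p = 0.0286). Unlike Irs1, Irs2 (chr8:10984681-11008458, minus strand) had H3K18la in every list, and more of its window was covered in muscle and adipocytes. The promoter of the non-coding gene 9530052E02Rik lies in the window, and the peaks over it also overlapped the Irs2 promoter. Without these peaks the enrichment was 9.14 in GAS, 18.4 in MB, 6.48 in MT and 9.96 in ADIPO. It was 0 in both stem cell lists, 4.02 in BMDM and 3.45 in PIM, without overlap between the groups. The stem cell lists lost their only peak this way, so their 0 was fixed by the removal and is not separate evidence. ESC-ser and ESC-2i each had a single peak over the promoter, of 6725 and 9226 bp. MB had no peak at the promoter at all, but 3 peaks further down, the strongest of 3121 bp centred 13573 bp into the gene. ADIPO was strongest at the promoter, with a peak of 9103 bp within the top 4.81%. GAS, which also had promoter peaks, was strongest at a peak of 11573 bp centred 15772 bp into the gene, and MT, with a promoter peak as well, at one centred 30456 bp from the start, in the flank beyond the gene. In BMDM and PIM the strongest peak lay upstream, centred at -7614 and -7650 bp from the start. Muscle and adipocyte lists had 9438 bp in common, and 7113 bp of these were in none of the other lists.

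These Irs1 and Irs2 differences kept both calls in 15 of 17 alternatives, but not where lists were cut to a common size. With the 5000 strongest peaks of each list Irs1 alone separated the groups. With each list reduced to the bases of the smallest, Irs1 fell to 0 in MT while standing at 18.3 in GAS, 11.6 in MB and 16.9 in ADIPO, with 0 in all 4 others. Irs2 was likewise 0 in MT, so neither separated the groups.

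**Figure D2:**
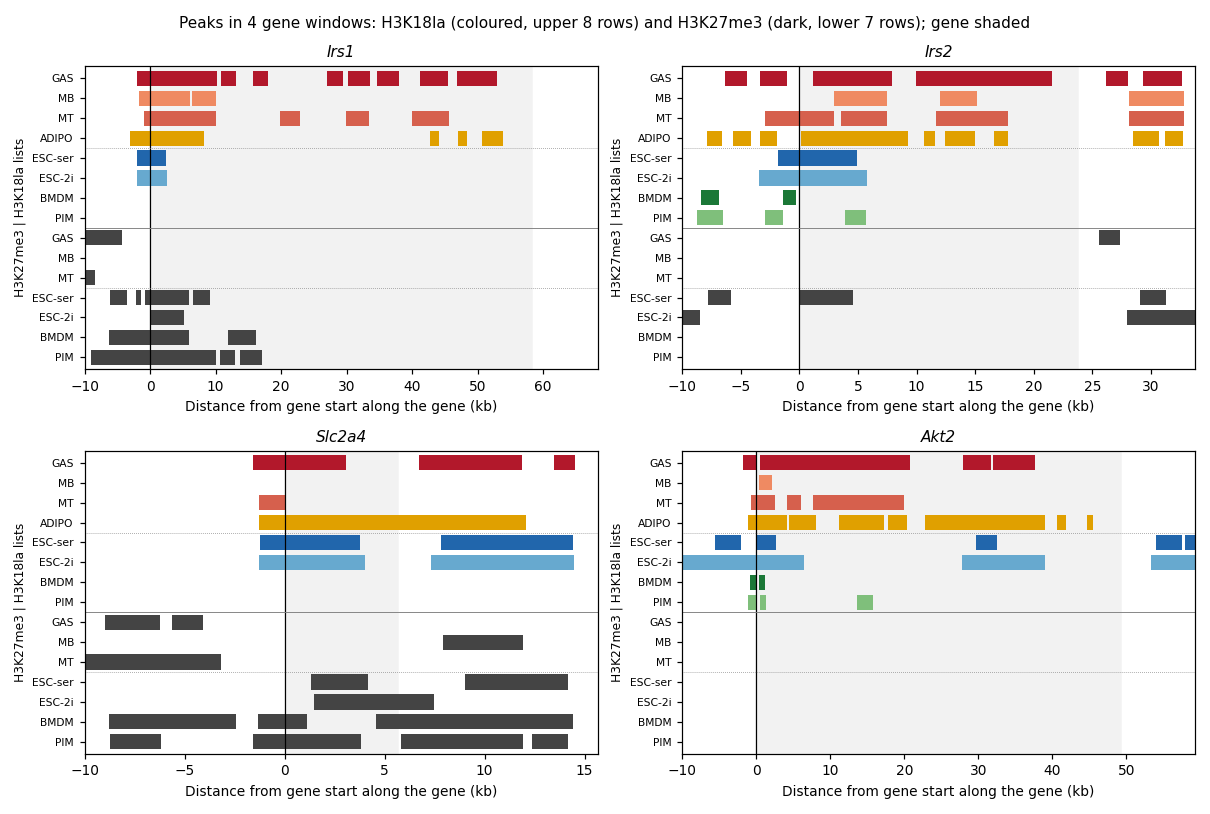
Peaks in the windows of Irs1, Irs2, Slc2a4 and Akt2 plotted by distance from the gene start in kb (x axis), with 1 row per list, H3K18la above in colour and H3K27me3 below in dark grey; the gene body is shaded. Over Irs1 the muscle and adipocyte H3K18la peaks extend about the promoter while H3K27me3 peaks cover it in the 4 other cell types, and over Akt2 there is no H3K27me3 peak in any list.

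The receptors differed in which cell types carried the mark. Insr encodes the insulin receptor (chr8:3122061-3279617, minus strand), and its enrichment was 4.50 in GAS, 0 in MB, 1.56 in MT and 6.91 in ADIPO. It was 0 in ESC-ser, ESC-2i and BMDM and 0.908 in PIM, so MB was the list that made the groups overlap (exact permutation p = 0.143). Without MB, Insr and Tbc1d4 also separated the groups, which made 4 of 9 genes against 4.68% of all genes. The Insr peaks were mainly intronic: the strongest was centred 60202 bp into the gene in GAS, 39113 bp in ADIPO, 31924 bp in MT and 28424 bp in PIM. The GAS and ADIPO peaks, of 9573 and 9123 bp, ranked at the top 6.96% and 7.00% of their lists.

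Igf1r encodes the receptor of insulin-like growth factors, a close relative of the insulin receptor (chr7:67952827-68233668, plus strand). Its pattern followed muscle rather than fat, with 4.98 in GAS, 3.66 in MB, 5.75 in MT and 0.537 in ADIPO. The others had 0.568 in ESC-ser, 0 in ESC-2i, 0.691 in BMDM and 2.10 in PIM (exact permutation p = 0.114). All 3 muscle values were above all others, and without ADIPO the groups separated, as they did for 4.1% of all genes. GAS had 22 peaks in the window of 300.8 kb and MT had 19, against 3 in ADIPO. The strongest GAS peak ranked 503rd and lay over an exon 267418 bp into the gene, and the ADIPO promoter was not called.

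Pik3r1 and Akt2, the regulatory subunit of phosphoinositide 3-kinase and the AKT isoform tied to glucose uptake, had their highest enrichment in ADIPO. Pik3r1 (chr13:101680563-101768217, minus strand) stood at 9.88 in GAS, 1.92 in MB, 1.82 in MT and 24.1 in ADIPO, against 4.22, 2.54, 2.47 and 4.85 in ESC-ser, ESC-2i, BMDM and PIM. MB and MT were below all 4 of the rest, so the groups overlapped (exact permutation p = 0.429). In ADIPO 12 peaks covered 75382 bp of the window, and the strongest, of 14671 bp at the promoter, ranked 596th of 28752. Akt2 (chr7:27591552-27640826, plus strand) stood at 9.76 in GAS, 1.63 in MB, 4.82 in MT and 17.8 in ADIPO, against 6.38 in ESC-ser, 10.0 in ESC-2i, 2.95 in BMDM and 2.33 in PIM (exact permutation p = 0.543). It held the highest ranked H3K18la peaks of the 9 genes, a 20222 bp peak ranked 166th in GAS (top 0.451%) and a 16208 bp peak ranked 195th in ADIPO (top 0.678%). The ESC-2i peak of 29329 bp also covered the promoter of the neighbour 2310022A10Rik, and with peaks over other genes' promoters left out the ESC-2i value was 3.33.

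Tbc1d4, also known as AS160, is the AKT substrate that holds GLUT4 vesicles back until it is phosphorylated. In its window (chr14:101442360-101609191, minus strand) the enrichment was 2.71 in GAS, 0 in MB, 1.27 in MT and 6.10 in ADIPO. The rest were all below the genome average, at 0.394 in ESC-ser, 0.273 in ESC-2i, 0.495 in BMDM and 0.753 in PIM (exact permutation p = 0.143). GAS and ADIPO had 11 peaks each, the strongest of them intronic, 67359 and 88395 bp into the gene. The stem cells had a single peak, of 2302 bp in ESC-ser and 2478 bp in ESC-2i, and it lay at a promoter.

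Slc2a4 encodes GLUT4 itself (chr11:69942539-69948188, minus strand), and H3K18la did not separate muscle and adipocytes from the rest. Its enrichment was 9.04 in GAS, 0 in MB, 1.00 in MT and 17.8 in ADIPO, but 14.4 in ESC-ser and 10.0 in ESC-2i, with 0 in BMDM and PIM. The group means, 6.97 ± 8.30 and 6.11 ± 7.28 (SD, n = 4 each), did not differ beyond their spread (exact permutation p = 0.83). The difference of 0.864 changed sign under several alternatives, to -2.76 without ADIPO and -1.38 with 20 kb flanks, and grew to 13.3 with the 5000 strongest peaks, 15.1 with lists cut to the bases of the smallest and 6.97 in the 6 cell types processed as nuclei. ADIPO had a single peak of 13308 bp over the whole gene, ranked 771st (top 2.68%), and GAS a promoter peak of 4655 bp ranked 2981st (top 8.10%). The ESC-ser and ESC-2i promoter peaks were similar in width, 4977 and 5300 bp, but ranked 5647th of 19057 and 10261st of 19908. The gene is short, 5650 bp, and the promoter of the neighbour Ybx2 and that of the pseudogene Gm12310, which overlaps the Slc2a4 promoter, reach into its window. In every list each H3K18la peak of the window also overlapped one of these, so the window value cannot be given to Slc2a4 alone.

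Foxo1 (chr3:52268336-52353221, plus strand) had 8.04 in GAS, 0 in MB, 2.23 in MT and 6.05 in ADIPO, against 2.67 in ESC-ser, 1.87 in ESC-2i, 0 in BMDM and 1.00 in PIM. GAS and ADIPO were above all others, and MB shared its 0 with BMDM (exact permutation p = 0.286). The GAS peaks, 12 in number, were strongest in the intron, 28938 bp from the start.

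Insr, Tbc1d4, Slc2a4 and Foxo1 had no H3K18la peak in MB and between 1 and 5 in MT, 4 of 9 genes against 29.5% of all genes. Irs1, Irs2 and Pik3r1 had the higher enrichment in MB, as 17.4% of all genes did, but this turned with the scaling. As covered percent of the window, not divided by list size, Irs1 was at 14.61 in MB and 29.88 in MT, Irs2 at 28.2 and 47.2 and Pik3r1 at 2.95 and 9.44. The MB list is from 1 sample, covers 40.5 Mb against 136.8 Mb in MT, and calls 11.1% of all promoters against 34.8%, and the part of this in the difference was not tested. By level, ADIPO was highest of the 8 cell types for Insr, Pik3r1, Akt2, Tbc1d4 and Slc2a4, GAS for Irs1 and Foxo1, MT for Igf1r and MB for Irs2. By unscaled covered percent GAS was highest for Insr (21.1, against 20.1 in ADIPO) and Irs2 (63.5). Without replicate lists the error on any single value is not known.

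Peaks were also ranked within each list by total signal, the summed coverage of a peak. The strongest H3K18la peak of a window was within the top 10% of its own list at 18 of 36 pairings of gene and cell type in muscle and adipocytes, and at 1 of 36 in the rest. Over all genes the shares were 8.9% and 8.99%. GAS accounted for 8 of the 18, ADIPO for 7 and MT for 3, and MB for none. Where a peak was present, the median rank was the top 8.05% and the median width 7914 bp in muscle and adipocytes, against 38.2% and 3106 bp in the rest. Total signal grows with width, and ranked by maximum signal, the highest coverage within a peak, the counts were 8 of 36 (8.85% over all genes) and 2 of 36 (7.55%), with 5 of the 8 in GAS. These counts are a description, since long windows offer more peaks and no test was run on them. In muscle and adipocytes 15 of the 32 strongest peaks were intronic and 13 at a promoter. In the rest 12 of 27 were at a promoter.

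**Figure D3:**
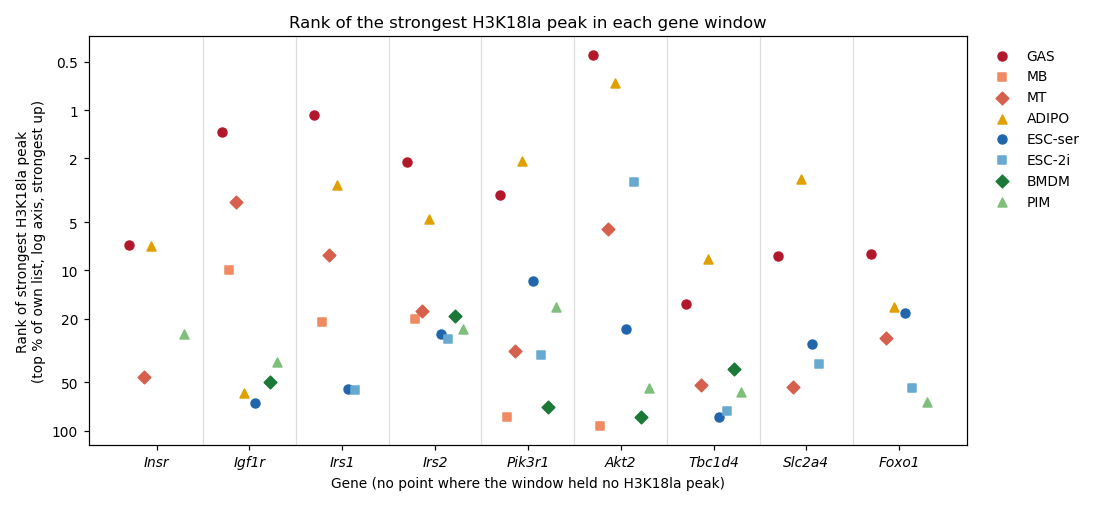
Rank of the strongest H3K18la peak in each gene window, as the top percentage of the peaks of its own list by total signal (y axis, log scale, strongest at the top), for the 9 genes (x axis) and 8 cell types (points). GAS and ADIPO points sit above the 10% level for 8 and 7 of the genes, and the highest point is the GAS peak of Akt2 at 0.451%.

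At promoters H3K18la was called at 27 of 36 combinations of member promoter and list in muscle and adipocytes (75.0%; 31.7% over all genes) and at 24 of 36 in the rest (66.7%; 31.9% over all genes). With the share over all genes in the same list in brackets, GAS was called at all 9 promoters (36.1%), ADIPO (44.7%) and ESC-ser (33.4%) at 8, MT (34.8%) and ESC-2i (37.8%) at 7, PIM (37.8%) at 6, and MB (11.1%) and BMDM (18.5%) at 3. The Akt2 promoter was called in all 8 lists. Irs2 was missed in MB, as was Pik3r1, while Irs1 was missed only in BMDM and PIM and Igf1r in ADIPO, ESC-2i and BMDM. Counting only the 5000 strongest peaks of each list gave 15 of 36 (7.08% over all genes) against 2 of 36 (9.66%).

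H3K4me3, the promoter mark, was called at all 9 genes in GAS, ESC-ser, ESC-2i and PIM, and 42.7% of all genes were called in all 4 of these lists. As single combinations these were 9 of 9 in GAS, where 64.2% of all genes were called, and 27 of 27 in the rest, where 56.6% were. The promoter peaks differed in width and rank all the same. Over Irs1 the GAS peak was 11178 bp wide and ranked 37th of 28915, within the top 0.128%. The promoter peaks of ESC-ser and ESC-2i were within the top 8.41% and 2.63%. In PIM the promoter peak ranked 11190th of 25448, and the strongest peak of the window, at 32.6%, was intronic. Over Slc2a4 the GAS peak was 4147 bp and within the top 2.20%, against 28.4% in ESC-ser, 69.0% in ESC-2i and 64.1% in PIM. By window enrichment GAS was above all 3 others for Insr, Irs1, Pik3r1, Akt2, Tbc1d4 and Foxo1, 6 of 9 genes against 22.1% of all genes, from 1 muscle list and with no test.

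H3K27ac was called at all 18 combinations in GAS and ADIPO (46.5% over all genes) and at 18 of 27 in ESC-ser, BMDM and PIM (41% over all genes). With the 5000 strongest peaks of each list these counts were 14 of 18 (14.1% over all genes) and 8 of 27 (17.5%). In window enrichment 5 of 9 genes were higher in both GAS and ADIPO than in the other 3 lists, namely Insr, Irs1, Irs2, Tbc1d4 and Foxo1, where 8.75% of all genes were. With 2 against 3 lists the smallest two-sided p is 0.2, so no test was run. The Irs1 H3K27ac enrichment was 9.80 in GAS and 7.76 in ADIPO, and 0 in ESC-ser, 0 in BMDM and 0.622 in PIM. The strongest Irs1 peak ranked 128th of 23089 in ADIPO (top 0.554%) and 244th of 35286 in GAS (top 0.691%), and in GAS it was 29978 bp wide. Slc2a4 had 5.07 in GAS and 22.8 in ADIPO, and again a high value in the stem cells, 10.2 in ESC-ser, with 0 in both macrophage lists.

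**Figure D4:**
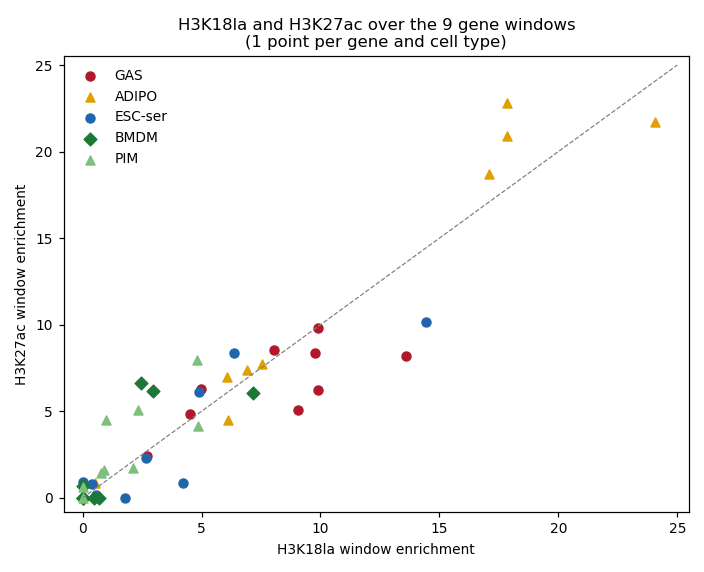
H3K27ac window enrichment (y axis) against H3K18la window enrichment (x axis) for the 9 genes in the 5 cell types with both marks, with a dashed line where the values are equal. The ADIPO points reach the highest values of both marks, 24.1 for H3K18la and 22.8 for H3K27ac, and no BMDM or PIM point exceeds 7.97 on either axis.

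Within the windows the share of H3K18la bases that were also H3K27ac was highest in GAS, whose H3K27ac list is the largest (197 Mb, against 27.4 to 54.5 Mb in the others). There 76.8% of the H3K18la bases of the 9 windows were also H3K27ac, against 69.1% summed over the windows of all genes. The share was 62.2% in ADIPO (60.6% over all genes), 65.6% in BMDM (68.3%), 28.7% in ESC-ser (36.9%) and 26.9% in PIM (35.1%). As a share of H3K27ac bases the order changed, with 88.0% in ESC-ser (74.1% over all genes), 85.99% in ADIPO (76.5%), 50.8% in GAS (36.1%), 47.6% in PIM (65.2%) and 31.9% in BMDM (33.2%). The shares of H3K18la were within 9 percentage points of those of all genes in each cell type. At Irs1 90.6% of the GAS H3K18la bases carried H3K27ac, while the ESC-ser promoter peak of 4349 bp carried none.

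H3K27me3 was called at 0 of 27 combinations in GAS, MB and MT (18.9% over all genes) and at 18 of 36 in ESC-ser, ESC-2i, BMDM and PIM (23.8% over all genes). ADIPO had no H3K27me3 list. All but Akt2, that is 8 of the 9 genes, were called in no muscle list and in at least 1 of the others, a pattern held by 15.7% of all genes and by 17.2% of genes with promoter H3K4me3 in all 4 lists. No test over the members was run, since they were chosen as a pathway and with earlier results of these data known. Irs1 and Slc2a4 were called in all 4 of the other lists. ESC-ser was called at 7 of 9 promoters, all but Akt2 and Foxo1 (27.1% over all genes), PIM at 5 (26.5%), ESC-2i at 4 (22.5%) and BMDM at 2 (19.2%). With the 5000 strongest peaks alone the counts were 0 of 27 (9.71% over all genes) and 7 of 36 (14.3%).

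**Figure D5:**
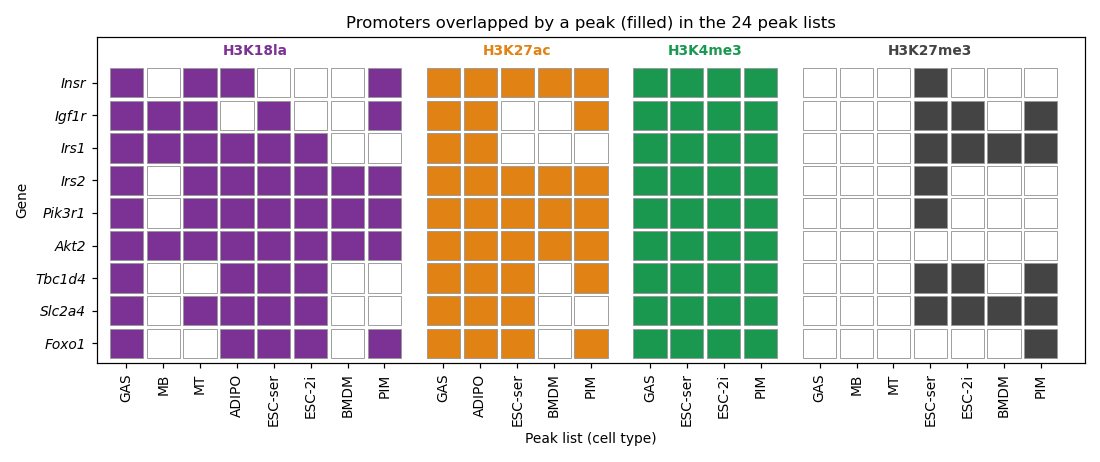
Promoter calls of the 9 genes (rows) in the 24 peak lists (columns, grouped by mark); a filled square means that at least 1 peak overlapped a promoter. H3K4me3 is filled throughout, and H3K27me3 is empty in GAS, MB and MT and filled at 18 of 36 squares in the other 4 cell types.

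The Polycomb mark covered Irs1 broadly in PIM, where a peak of 19042 bp over the promoter ranked 511th of 15798 (top 3.23%), and a peak of 22904 bp reached the Igf1r promoter from upstream. The H3K27me3 Irs1 window enrichment was 1.40 in GAS, 0 in MB and 0.300 in MT, all from the upstream flank, against 4.89 in ESC-ser, 1.19 in ESC-2i, 5.60 in BMDM and 8.14 in PIM. GAS was above ESC-2i, so the groups overlapped. Over Slc2a4 it was 3.19 in GAS, 7.58 in MB and 4.04 in MT, and 9.55 in ESC-ser, 4.28 in ESC-2i, 19.5 in BMDM and 15.9 in PIM. In the muscle lists these bases lay in the flanks, upstream in GAS and MT and over the Ybx2 promoter in MB. Foxo1 was the only member lower in muscle without overlap, 0 in all 3 lists against 0.311 to 5.84, where 6.9% of all genes were lower. Akt2 had no H3K27me3 base in its window in any of the 7 lists.

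In ESC-ser the repressive mark and H3K18la occupied the same bases at several of these genes. Of the H3K18la bases in the 9 windows 30.8% were also H3K27me3, against 10.1% over the windows of all genes, and the share was 93.0% at Tbc1d4, 87.9% at Irs1, 67.5% at Irs2, 65.9% at Slc2a4 and 47.3% at Igf1r. It was 0 at Pik3r1, Akt2 and Foxo1, and Insr had no H3K18la there. In ESC-2i the share was 6.18% (3.01% over all genes), in GAS 0.375% (2.38%) and in PIM 1.58% (5.51%). In MB, MT and BMDM it was 0. Marks on the same molecules and marks in different cells of the culture cannot be told apart in these lists. Counting marks within 2 kb of one and the same start site, Irs2, Tbc1d4 and Slc2a4 carried all 4 in ESC-ser, 3 of 9 genes against 2.95% of all genes. The ESC-ser H3K27me3 peak of Pik3r1 lay at an internal start, 73720 to 76120 bp into the gene, where the other marks were not called. In GAS 8 of the 9 genes, all but Igf1r, had a start with H3K18la, H3K27ac and H3K4me3 and without H3K27me3 (26.6% of all genes). In PIM Igf1r and Foxo1 had a start with all 4 marks (3.58% of all genes), and Irs1 and Slc2a4 one with H3K4me3 and H3K27me3 alone (7.74%).

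The rest of the pathway did not share the H3K18la window pattern of the members. Of 58 further genes from ligands to vesicle proteins, 55 had H3K18la in at least 1 list, and 1 was higher in muscle and adipocytes without overlap (1.82%; 2.12% of all genes) and 3 were lower (5.45%; 3.58% of all genes). The median difference was -0.09, and 27 of the 55 had the higher mean in muscle and adipocytes. Socs3, a feedback inhibitor of cytokine and insulin receptors, was lower, with means of 15.7 ± 1.76 and 29.1 ± 11.8 (SD, n = 4 each). Grb2, the adaptor that links receptors to RAS, had means of 1.49 ± 1.42 and 4.33 ± 0.883. Foxo4, a relative of Foxo1, had 0.609 ± 1.22 and 4.77 ± 2.09. Each of these 3 lower genes had the smallest exact permutation p of 0.0286 and an adjusted p of 0.501 over all genes. At promoters H3K27me3 followed the pattern of the members, none in muscle and at least 1 other list, in 18 of the 58 genes (31%, against 15.7% of all genes). As combinations of promoter and list it was called at 15 of 174 in muscle (18.9% over all genes). In the rest it was called at 51 of 232 (23.8% over all genes). H3K18la was called at 60.8% of pathway promoters in muscle and adipocytes and 55.2% in the rest (31.7% and 31.9% over all genes), and 50 of the 58 had H3K4me3 in all 4 lists.

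By Pearson correlation of log2 enrichment (plus 0.5) over the 24 lists, the genes on other chromosomes most like Irs1 were Adamts1 (r = 0.93), Rgmb (0.91) and Tmem88b (0.87). Those most like Insr were Rab11b (0.94), Pigu (0.93) and Clpx (0.92), and those most like Slc2a4 were AI464131 (0.90), 1110017D15Rik (0.89) and Slc43a1 (0.88). The points share lists and list sizes, so these values are descriptions only.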

How the data were processed

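CUT&Tag was analysed in the 41 samples as 24 peak lists. Per the labels and methods, the authors trimmed reads with Trim Galore 0.6.6, aligned them to mm10 with Bowtie2 2.4.4, computed coverage with bedtools 2.30, combined replicates and called peaks with SEACR 1.3 without a control. The deposited lists give the total and maximum signal of each peak in whole numbers that were not scaled for depth, so signal was ranked within a list only, and reads per sample were not used here. Depth and size differ between lists, and pooling means that no replicate error exists. The file names of the stem cell H3K18la, H3K27me3 and H3K4me3 lists outside 2i omit the medium. They were assigned to ESC-ser because ESC-2i has lists of its own and, for H3K18la, because the ESC-ser samples name that list.

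Genes and TSS came from GENCODE vM21 (mm10), and promoter sequences from RefSeq GRCm38.p6. An overlap of 1 bp counted. Groups were compared over cell types by an exact two-sided permutation test with Benjamini-Hochberg adjustment over all genes with a peak in any list, using Python 3.11.15, numpy 2.4.6 and pandas 2.3.3. Code was tested on simulated data against bedtools 2.31.1 and scipy 1.17.1. Members, pathway genes and markers were chosen with earlier results of these data known. Named genes were the members, pathway genes whose groups did not overlap (the values of 1 are not reported here), and the 3 genes most correlated with Slc2a4, Irs1 and Insr; Slc2a1, Slc2a3 and Slc2a12 were added after their values were seen. Alternatives changed the window, the promoter, the lists and the cell types.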

Additional observations from a re-analysis of the deposited data

Results flagged for a closer look

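One of 18 sets of 4 cell types examined, the Insr H3K18la enrichment in the cell types other than muscle and adipocytes, held a value that stood apart. PIM had 0.908 while ESC-ser, ESC-2i and BMDM were at 0, so the gap made up the whole range, as it would for any value above 0 beside 3 tied values. It rests on 3 peaks that cover 4219 bp of the Insr window. The rate of about 1 in 20 sets that chance marks does not hold for values tied at 0.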

How the results depend on the processing

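The count of members higher in muscle and adipocytes without overlap, 2, was unchanged or within 1.5 times in 14 of 17 alternatives. It was 1 (Irs1; 0.73% of all genes) with the 5000 strongest peaks of each list and 0 (0.439%) with lists reduced to the bases of the smallest, and ranged from 2 to 4 (2.42 to 4.68%) when 1 cell type was left out, 4 being without MB (Insr, Irs1, Irs2, Tbc1d4). With stem cells alone as the rest, an alternative added after seeing the data, it was 2, where 6.08% of all genes were called against 2.12% in the main analysis. Promoter counts kept within 1.5 times in 36 of 40 alternatives; with the 5000 strongest peaks they were 15 and 2 for H3K18la in muscle and adipocytes and in the rest, 8 for H3K27ac in the rest and 7 for H3K27me3 in the rest. The Slc2a4 difference of 0.864 reversed to -1.38 with 20 kb flanks, -2.76 without ADIPO and -1.17 without BMDM or PIM. It was -5.24 against stem cells alone and -1.46 in the 6 cell types whose sample labels carry the tag antibody rather than histone. The assay itself used an antibody in every sample. The Akt2 difference reversed to -0.0166 without ADIPO. Over all cell types left out in turn the Slc2a4 difference ran from -2.76 to 3.64 and the Akt2 difference from -0.0166 to 5.38. With the 5000 strongest peaks and with reduced lists they were 13.3 and 15.1 for Slc2a4 and 10.8 and 10.2 for Akt2, and Akt2 was at 0.100 with 20 kb flanks. The cause was not tested. No paired analysis was possible because replicates were pooled before peak calling. List size limits what can be seen: a missing peak in MB or BMDM, each 1 sample, is not evidence that the mark is absent.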

Other observations

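The other glucose transporters in the pathway list were singled out after their values were seen. Slc2a1, which encodes the widely expressed transporter GLUT1, had an H3K18la enrichment of 3.42 in GAS, 13.7 in MB, 10.1 in MT and 2.82 in ADIPO, against 20.5 in ESC-ser, 10.46 in ESC-2i, 16.0 in BMDM and 17.4 in PIM (exact permutation p = 0.0571, adjusted p = 0.677 over all genes). GAS and ADIPO were thus the lowest for Slc2a1, while both were marked in the Slc2a4 window. ESC-ser and ESC-2i were also marked in the Slc2a4 window, at 14.4 and 10.0, and MB and MT were at 0 and 1.00. The Slc2a4 window value cannot be given to that gene alone. Slc2a3, which encodes GLUT3, had 0.568 in GAS, 6.47 in MB, 2.51 in MT and 5.86 in ADIPO, and 12.4 in ESC-ser, 11.04 in ESC-2i, 2.46 in BMDM and 3.32 in PIM (exact permutation p = 0.314). Slc2a12, which encodes GLUT12, was highest in GAS at 2.59, with 1.21 in ADIPO and in ESC-ser, and 0 in MB and MT (exact permutation p = 0.714).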
